A study of Mus musculus with 16 samples.

Results

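The cytoplasmic ribosomal protein genes were described here in mouse intervertebral discs, as 81 of the 24188 genes that passed the filter on low levels and of the 49315 genes in the table. They were chosen by name: Rpl or Rps followed by a number and at most 1 of the letters a, x or l, the stalk genes Rplp0 to Rplp2, and Rpsa. A gene also needed at least 1 TPM (a read count scaled by gene length, then by the total of the library) in at least 3 libraries. Of 83 genes with such a name, 81 passed, 32 of the small 40S subunit and 49 of the large 60S subunit. Both rejected genes are variants. Rpl39l had a mean of 0.496 TPM, and Rpl10l was listed at 0 in every library. Just inside the threshold were Rpl6l with a mean of 1.34 TPM, Rpl32l with 1.66 and Rpl3l with 1.77. The annotation (GENCODE release M21, GRCm38) gives 78 of the 81 as protein coding and Rps4l, Rpl32l and Rpl6l as processed pseudogenes.

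The samples were 16 mice in 4 groups. Mutant mice were Adam8EQ, and the other mice were wild type, with DBA named as their counterpart in the series title. Discs were labelled injured or intact, without a statement of how or when they were injured, and without ages. There were 3 intact and 4 injured wild-type mice, and 4 intact and 5 injured mutant mice. Each library held the 4 tail discs of 1 mouse, pooled after the cartilaginous endplate had been cut away. Adam8 encodes a metalloprotease of the cell membrane, and what the EQ allele changes is not given in the sources used here.

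Each ribosome carries nearly all of these proteins in 1 copy, so the genes are usually transcribed at high and matched levels, and their mRNAs are among the most abundant of a cell. Many of the mRNAs begin with a cytosine followed by a run of pyrimidines, the 5′ terminal oligopyrimidine tract, through which mTOR and Larp1 set their translation and storage. In the disc, the cells of the nucleus pulposus and annulus fibrosus secrete large amounts of collagen and aggrecan, which makes protein synthesis a main activity of the tissue.

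Promoter sequences were found in the RefSeq table (GRCm38.p6) for 59 of the 81 genes. The table gives 250 bases before and 50 after each start site. Shown are 70 bases before the start and 30 from it for 6 genes named in the results. They are the pair Rps27 and Rps27l, which moved in opposite directions, and Rps6, Rpl5 and Rpl38, which fell in injured mutants. The last is Rplp0, which did not change detectably. Capitals mark CTTTCC, a core of the pyrimidine tract, or CCGGAAG, a core of ETS and GABP sites, on either strand.
Rps27: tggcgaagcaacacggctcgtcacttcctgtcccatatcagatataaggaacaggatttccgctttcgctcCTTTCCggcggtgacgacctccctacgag
Rps27l: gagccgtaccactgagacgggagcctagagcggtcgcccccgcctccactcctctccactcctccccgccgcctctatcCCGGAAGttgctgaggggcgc
Rps6: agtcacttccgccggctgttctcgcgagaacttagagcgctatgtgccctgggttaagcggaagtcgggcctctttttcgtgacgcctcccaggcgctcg
Rpl5: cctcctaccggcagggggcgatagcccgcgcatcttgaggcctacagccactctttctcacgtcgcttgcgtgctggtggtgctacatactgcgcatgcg
Rpl38: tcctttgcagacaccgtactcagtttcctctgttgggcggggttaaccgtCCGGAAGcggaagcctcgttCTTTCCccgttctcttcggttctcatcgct
Rplp0: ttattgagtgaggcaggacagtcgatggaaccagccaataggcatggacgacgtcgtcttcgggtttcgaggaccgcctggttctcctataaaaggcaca

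These stretches lie at chr3:90213619-90213718 on the minus strand for Rps27, chr9:66946016-66946115 on the plus strand for Rps27l and chr4:86857338-86857437 on the minus strand for Rps6. The others are all on the plus strand, at chr5:107900458-107900557 for Rpl5, chr11:114668510-114668609 for Rpl38 and chr5:115559397-115559496 for Rplp0. The CTTTCC of Rps27 begins at its base 2 counted from the start site and that of Rpl38 at base 1. Rps6 begins with ctctttttc, also a run of pyrimidines, left unmarked because it holds no CTTTCC. By these RefSeq starts, the mRNAs of Rps27, Rps6 and Rpl38 would open with pyrimidines. Those of Rpl5, Rplp0 and Rps27l would open with a G. The starts lie 56 bases from the GENCODE start for Rpl38, 45 for Rps6, 26 for Rpl5 and 3 for Rps27. For Rps27l and Rplp0 the distance is 0. Where the mRNAs begin in these discs was not measured. The start of Rps27l shows no CTTTCC and instead holds a CCGGAAG just downstream.

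Over the full window of 300 bases and both strands, CTTTCC was found in 30 of the 59 genes (50.8%) and in 29.3% of all 27025 genes with a window. CCGGAAG was found in 24 of 59 (40.7%) against 9.9%. AAGATGG, a YY1 core, was in 9 of 59 (15.3%) against 7.3%. TATAAA was in 7 of 59 (11.9%) against 15.7%, and the Myc site CACGTG in 6 of 59 (10.2%) against 8.1%. Listed motifs can overlap by shared end letters, such as CTTTCC and CCGGAAG by CC, and CCGGAAG and AAGATGG by AAG. No listed motif contains another. Among the 59, CTTTCC occurred in 14 of the 27 genes that fell in injured mutants (below) and in 16 of the other 32, and CCGGAAG in 10 of 27 and 14 of 32. A match is only a run of letters, and binding was not measured.

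The libraries held 10197012 to 24837659 reads as implied by the TPM steps, and 95486 to 173757 of them fell in the 81 genes. Injured mutant mouse 1 was the deepest library. Discs were recognisable by their markers: all 8 disc and cartilage markers (Acan, Col2a1 and others) were present, with a summed level of 4977 to 19749.9 TPM. Wild-type libraries all carry names beginning with D and mutant libraries names beginning with A8 or M, and what the prefixes stand for is not stated.

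Within the tissue, the 77 protein-coding members above 5 TPM ranged from 28.0 TPM (Rpl36a) to 982 TPM (Rps12), a 35.1-fold spread, with a median of 258 TPM. Among the 5 highest were Rps12 at a mean of 982 TPM over all libraries, Rpl38 at 966, Rpl36 at 925 and Rpl19 at 759. The 5 lowest of the 81 were Rpl6l, Rpl32l, Rpl3l, Rpl36a and Rps15a, the last at 32.1 TPM. The levels depend on the length the authors divided by. The values fit the union of all annotated exons, which runs from 383 bases (Rpl36) to 6270 bases (Rps15a), while the median coding transcript of Rps15a is 640 bases long. Across these 77 genes, level and union exon length had a Spearman correlation of -0.447, given as a description. The ratio of the upper to the lower quartile of levels was 4.20, and it was 2.66 when each level was rescaled to the median coding transcript. The SD of the log2 levels moved less, from 1.326 to 1.219. Genes whose proteins mostly stand in equal numbers on a ribosome were therefore not equal in TPM here. Part of the spread went with the choice of length.

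Copies in the genome also touch these values. Retrotransposed copies of ribosomal protein mRNAs are common in mammals, and reads from near-identical copies can be split or dropped by counting, whose rules are not stated. Of all 75-base windows of a member's coding transcripts, a median of 31.1% also occurred in another annotated gene, with a highest share of 89.2%. Only 3 of 81 members shared none, and 25 shared at least 50%. Rps6 shared 84.1% of its windows with 11 other genes, Rps27 42.4% with 4, Rps27l 8.1% with 3, and Rpl3l none. Rows named as ribosomal protein pseudogenes summed to 917 to 1538 TPM in a library, with 917 to 1190 TPM in injured mutants and 1276 to 1419 TPM in intact mutants. In addition, 29 members carry snoRNA genes inside them (56 in all), and 22 of them have one overlapping an annotated exon.

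The 81 genes together made up 2.83%, 3.12% and 2.43% of all TPM in intact wild-type mice 1 to 3. In injured wild-type mice 1 to 4 the shares were 2.47%, 2.04%, 2.24% and 2.28%. Only injured mouse 1 lay above any intact mouse. Intact mutants 1 to 4 had 2.36%, 2.57%, 2.74% and 2.66%, and injured mutants 1 to 5 had 1.45%, 1.98%, 1.61%, 2.53% and 2.01%. In the mutants 4 of 5 injured mice lay below every intact mouse, and injured mutant 4 lay within the intact range. The mean shares were 2.79% ± 0.346 (SD, n = 3), 2.26% ± 0.176 (n = 4), 2.58% ± 0.164 (n = 4) and 1.92% ± 0.419 (n = 5) in the same order. The injured mutants had the largest SD. These are shares of the RNA in whole discs, where fewer cells of a type and less of an mRNA per cell cannot be told apart.

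**Figure D1:**
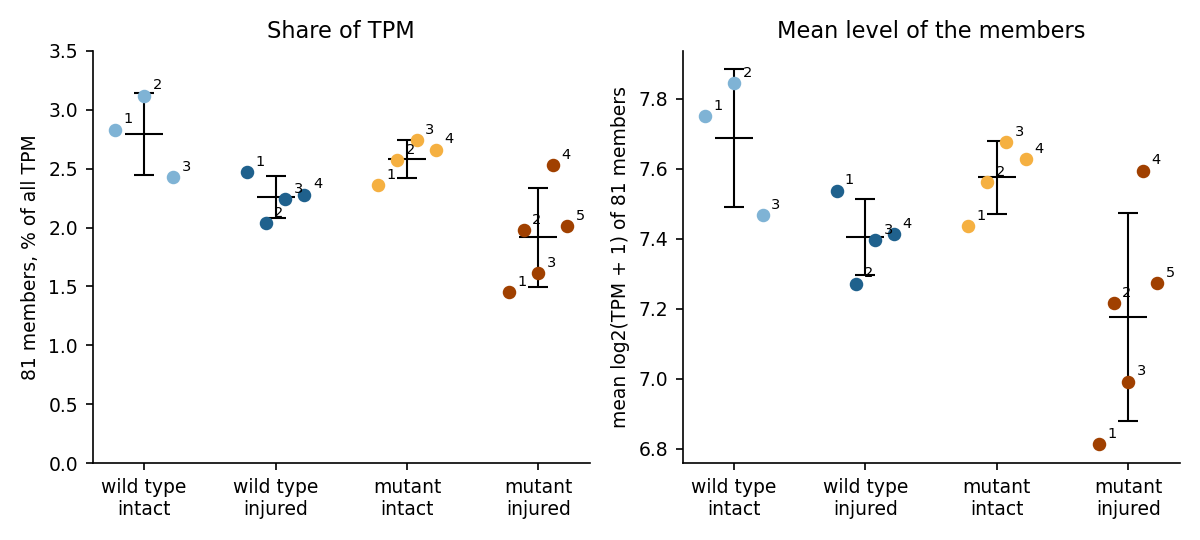
Left, summed TPM of the 81 genes as a percentage of all TPM in each library; right, mean log2(TPM + 1) of the 81 genes. Points are mice with their numbers, and bars are the group mean and SD. Shares run from 1.45% in injured mutant 1 to 3.12% in intact wild-type mouse 2, and injured mutant 4 sits at 2.53%, inside the range of the intact mutants.

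The mean log2(TPM + 1) of the genes gave the same picture. It was 7.69 ± 0.196 (SD, n = 3) in intact and 7.41 ± 0.109 (n = 4) in injured wild-type mice, and 7.58 ± 0.104 (n = 4) in intact and 7.18 ± 0.297 (n = 5) in injured mutants. Single mice moved over nearly all genes at once. In injured mutants 1 and 3, 79 of 81 genes lay below the mean of the intact mutants, in mice 2 and 5 72 of 81, and in mouse 4 43 of 81. Intact wild-type mouse 3 also stood low, with 76 of 81 genes below the mean of the other intact wild-type mice and a median difference of -0.31 on the log2 scale.

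The 2 subunits had similar differences. In mutants the mean log2(TPM + 1) of the 40S genes went from 7.84 ± 0.118 (n = 4) in intact to 7.45 ± 0.290 (n = 5) in injured discs, and that of the 60S genes from 7.40 ± 0.095 to 7.00 ± 0.302. In wild-type mice the 40S mean went from 7.97 ± 0.192 (n = 3) to 7.71 ± 0.114 (n = 4) and the 60S mean from 7.50 ± 0.202 to 7.21 ± 0.106.

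What injury did in mutant discs was compared between the 5 injured and 4 intact mutants. Of the 81 genes 40 fell and 1, Rps27l, rose (limma on log2(TPM + 1), adjusted p under 0.05 over all 24188 genes). This contrast called 30.8% of all genes tested, 17.7% as lower and 13.1% as higher, so that 50.6% of the ribosomal protein genes were called against 30.8%, and 49.4% as lower against 17.7%. The median change was -0.43 on the log2 scale (a level 25.7% lower), against -0.08 over all genes tested, and 75 of 81 changes were negative against 55.6% of all genes. The 40S genes gave 16 lower and 1 higher of 32, with a median of -0.42, and the 60S genes 24 lower of 49, with a median of -0.43. Groups without any overlap between mice were found, as lower, for 14 of 81 genes (17.3%), near the 15.3% of all genes tested.

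The count rests on the mice and the naming of the libraries. Among mutants named A8, 19 genes (23.5%) were called, 18 of them lower, with a median change of -0.52, in a contrast that called 14.8% of all genes. Among those named M, limma called 0, with 30 at an unadjusted p under 0.05, a median of -0.38 and 76 of 81 negative, in a contrast that called 3.0% of all genes. Leaving out 1 mutant at a time gave 23 to 58 called genes, in fits that called 22% to 30.3% of all genes. Without injured mutant 4 the count was 58 (71.6% against 30.3% of all genes). It was 24 without injured mutant 1 (29.6% against 25.3%) and 23 without injured mutant 3 (28.4% against 25.4%). It was 25 without intact mutant 2 (30.9% against 22%), 25 without intact mutant 3 (30.9% against 27.6%) and 23 without intact mutant 4 (28.4% against 23.8%). In these last 5 fits the share called was nearer to that of all genes than with every mouse included, while 27.2% to 29.6% were called lower against 12.5% to 15.8% of all genes. All 41 called genes kept their direction in each alternative that tested them, and 20 stayed called whichever mouse was left out. Of these, 13 also stayed called under each other setting tried except the M libraries alone: Rpl4, Rpl5, Rpl7, Rpl14, Rpl17, Rpl22, Rpl36, Rpl38, Rps4x, Rps21, Rps25, Rps27 and Rps27l. How many of all called genes kept their direction or stayed called in this way was not counted. These counts therefore have no background and do not set the members apart from other genes.

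**Figure D2:**
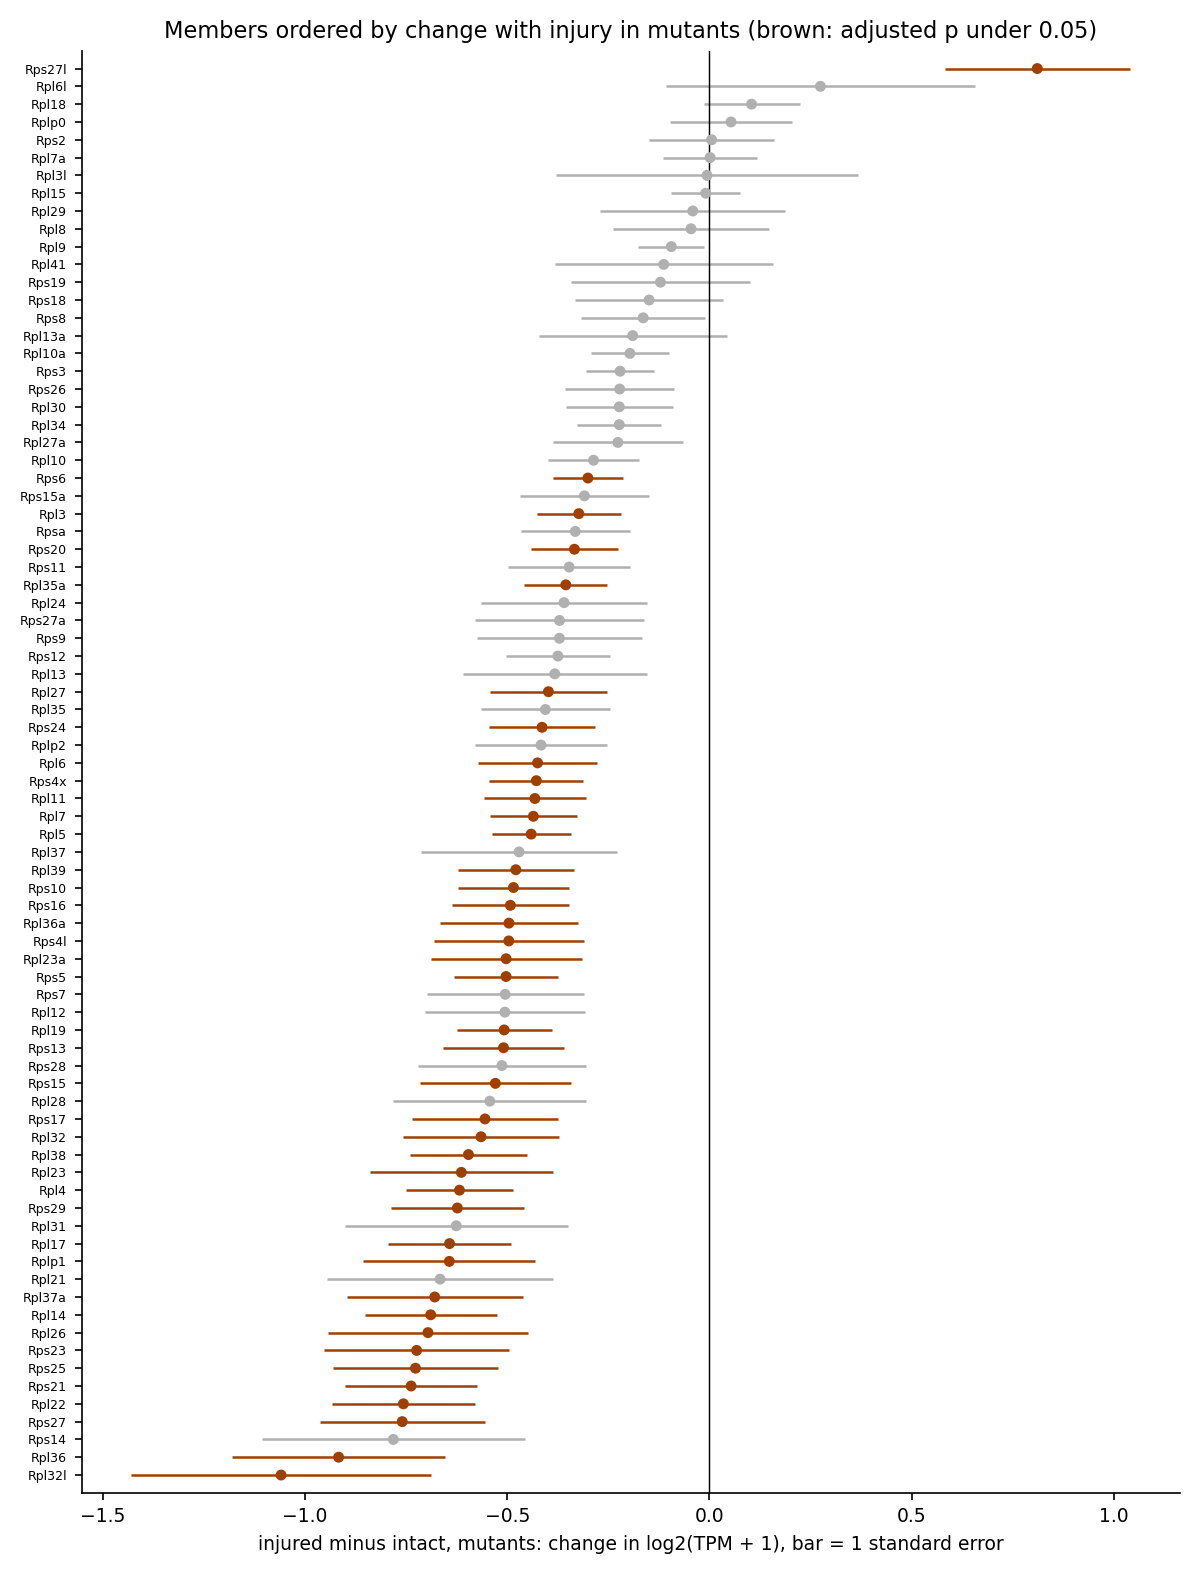
Change in log2(TPM + 1) from intact to injured mutants for the 81 genes except 1 that is not reported, ordered by size, with 1 standard error to each side; brown genes have an adjusted p under 0.05. Changes run from -1.06 (Rpl32l) to 0.81 (Rps27l), and all brown points but Rps27l lie left of 0.

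Among the 4 largest called falls were those of Rpl32l, Rpl36 and Rps27. Rpl36, a 60S protein (chromosome 17, 56613416 to 56614243, plus strand), stood at 932, 1224, 1230 and 1233 TPM in intact mutants 1 to 4. In injured mutants 1 to 5 it stood at 354, 643, 531, 1027 and 663 TPM. Injured mutant 4 lay above intact mutant 1, and the other injured mice lay below all intact ones. The change was -0.92 ± 0.263 (SE; adjusted p = 0.0136). It shares 70.9% of its windows with 5 other genes.

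Rpl32l is a processed pseudogene of 399 bases, and its fall of -1.06 ± 0.370 (SE; adjusted p = 0.0377) rests on few reads. It had 4.06, 1.58, 3.70 and 3.11 TPM in intact and 0.865, 0.737, 0.767, 1.49 and 0.786 TPM in injured mutants, at most 5 implied reads in any library. The groups did not overlap, but a single read is worth a large part of each value.

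Rps27 and Rps27l encode near-identical 40S proteins from separate genes, and Rps27l is known as a gene that p53 activates. They moved in opposite directions. Rps27 (chromosome 3, 90212522 to 90213651, minus strand) had 347, 400.1, 471 and 437 TPM in intact mutants and 165, 216, 215, 383 and 286 TPM in injured mutants, a change of -0.76 ± 0.204 (SE; adjusted p = 0.00942). Rps27l (chromosome 9, 66946086 to 66949516, plus strand) had 27.8, 40.8, 44.9 and 42.1 TPM in intact mutants. In injured mutants 1 to 5 it had 97.3, 85.8, 69.4, 43.8 and 56.8 TPM, a change of 0.81 ± 0.229 (adjusted p = 0.0112). For both genes injured mutant 4 was the mouse inside the intact range. Injured mutant 1 had the lowest Rps27 and the highest Rps27l of all 16 mice.

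The same pair in wild-type mice showed groups that did not overlap for either gene. Rps27 had 437, 473 and 366 TPM in intact and 337, 283, 291 and 261 TPM in injured discs. Rps27l had 52.0, 49.7 and 38.5 TPM in intact and 55.7, 57.2, 78.6 and 74.0 TPM in injured discs. Neither change passed the test (-0.54 with an adjusted p of 0.248, and 0.49 with one of 0.311). As a share of the summed TPM of the pair, Rps27l made up 9.51% to 10.6% in intact wild-type mice, 14.2% to 22.1% in injured ones, 7.41% to 9.26% in intact mutants and 10.2% to 37.1% in injured mutants. Every injured mouse but mutant 4 therefore had a share above all 7 intact mice.

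**Figure D3:**
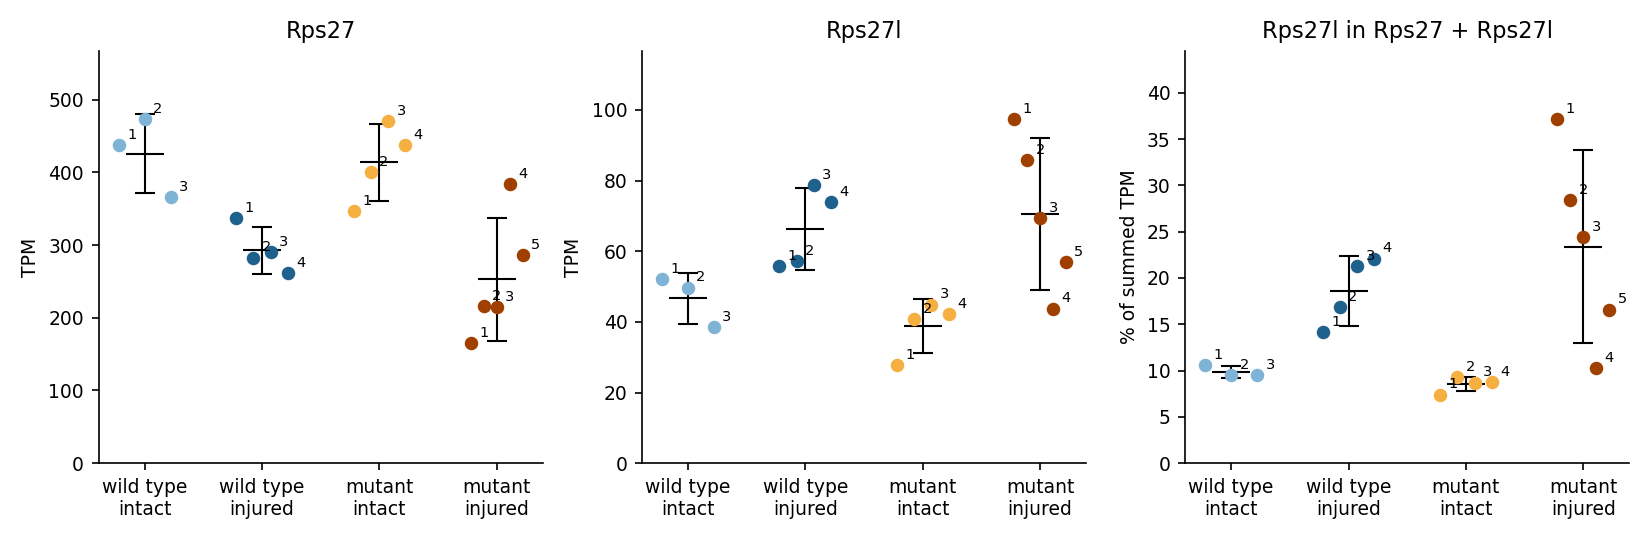
TPM of Rps27 (left) and Rps27l (middle) in each mouse, and Rps27l as a percentage of the summed TPM of the pair (right); points carry mouse numbers, bars are the mean and SD. The share of Rps27l runs from 7.41% to 10.6% in the intact mice and from 10.2% to 37.1% in the injured mice.

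By role, the acidic stalk of the 60S subunit, which recruits the translation factors that hydrolyse GTP, gave 1 call among its 3 genes. Rplp0, its base, had 435, 437, 620.4 and 560.1 TPM in intact and 405, 517, 519, 650.1 and 570.4 TPM in injured mutants, with fully overlapping groups and a change of 0.05 ± 0.151 (SE; adjusted p = 0.821). The level of Rplp1 averaged 931 ± 221 TPM (SD, n = 4) in intact and 599.9 ± 162 TPM (n = 5) in injured mutants, with overlapping groups, and fell by 0.64 on the log2 scale (adjusted p = 0.0291). Rplp2 gave -0.42 and missed the threshold (adjusted p = 0.0554).

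Both proteins of the particle with 5S rRNA fell. Free Rpl5 and Rpl11 bind Mdm2 and restrain it, which links ribosome assembly to p53. Rpl5 (chromosome 5, 107900502 to 107909005, plus strand) had 183, 185, 179 and 180.4 TPM in intact mutants and 117, 136, 114, 171 and 139 TPM in injured mutants, with no overlap. Its change was -0.44 ± 0.097 (SE; adjusted p = 0.00594). Rpl11 had 71.7, 68.2, 73.7 and 80.9 TPM in intact and 41.8, 62.1, 47.1, 66.6 and 57.4 TPM in injured mutants, also with no overlap, and changed by -0.43 ± 0.127 (adjusted p = 0.0179). Rpl5 shares 84.1% of its windows with 7 other genes, and Rpl11 52.7% with 8. Mdm2 itself rose by 1.08 in the same contrast and is counted among the regulators below. Whether its rise and the falls of Rpl5 and Rpl11 are linked was not tested.

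Around the tunnel through which the new peptide leaves, 4 of 5 genes fell: Rpl4 by 0.62, Rpl17 by 0.64, Rpl39 by 0.48 and Rpl23a by 0.50 on the log2 scale, while Rpl35 gave -0.41 (adjusted p = 0.0581). Neither gene at the mRNA entry was called, with 0.01 for Rps2 and -0.22 for Rps3. Rps27a, made as a fusion with ubiquitin, gave -0.37 (adjusted p = 0.166). Rps6, the 40S protein that S6 kinase phosphorylates, had 415, 429, 487 and 462 TPM in intact and 333, 389, 303, 420.03 and 382 TPM in injured mutants and changed by -0.30 ± 0.088 (SE; adjusted p = 0.0361). Only injured mutant 4 lay above an intact mutant for Rps6. The call of Rps6 held in 11 of 16 fits that left out 1 mouse and in 7 of 14 other settings. Over these alternatives its change ran from -0.377 to -0.099, with an adjusted p of up to 0.506 in limma. Rpsa, also known as the laminin receptor, gave -0.33 (adjusted p = 0.0674).

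Mutation of Rpl38 or Rpl24 in mice is known to disturb the axial skeleton and tail. Rpl38 (chromosome 11, 114668524 to 114672331, plus strand) had 1108, 1098, 1021 and 1046 TPM in intact and 579, 736, 547, 983 and 765 TPM in injured mutants, with no overlap, and changed by -0.60 ± 0.144 (SE; adjusted p = 0.0106). Rpl24 had 145, 194, 222 and 205 TPM in intact and 107, 122, 146, 207 and 173 TPM in injured mutants. Its groups overlapped, and its change of -0.36 did not pass (adjusted p = 0.173).

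The other variant genes were Rpl3l and Rps4l. Rpl3l, a form of Rpl3 made in striated muscle, had 4.13, 3.25 and 2.60 TPM in intact wild-type mice and 2.73, 0.451, 1.10 and 0.680 TPM in injured ones. Intact mutants had 1.72, 1.15, 1.26 and 1.13 TPM, and injured mutants 0.525, 0.895, 1.12, 4.89 and 0.763 TPM. The highest value was that of injured mutant 4, which also had the highest summed level of 8 muscle markers (Acta1, Ckm and others) among the mutants, 642 TPM against 27.1 to 270.02 TPM in the other injured mutants and 133 to 165 TPM in intact mutants. In intact wild-type mice the markers summed to 788, 369.8 and 200.01 TPM, in the order of their Rpl3l levels. The orders differed in the other groups: the markers summed to 222, 122, 91.2 and 144 TPM in injured wild-type mice 1 to 4, to 140.4, 165, 133 and 149 TPM in intact mutants 1 to 4 and to 87.0, 27.1, 131, 642 and 270.02 TPM in injured mutants 1 to 5. The part of muscle in the level of Rpl3l was not tested. Rpl3 itself fell in mutants, by 0.32 on the log2 scale (adjusted p = 0.0341). Rps4l changed by -0.50 (adjusted p = 0.0438) and Rps4x by -0.43 (adjusted p = 0.0160), and Rps4l stayed between 6.94% and 15.7% of the summed TPM of that pair.

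Besides Rps27l, the 5 genes with a change above 0 in mutants were Rpl6l (0.27), Rpl18 (0.10), Rplp0 (0.05), Rps2 (0.01) and Rpl7a (0.00), and none of these passed the test. Rps14, with -0.78, had the largest fall that did not pass (adjusted p = 0.0598). Across the 77 protein-coding genes above 5 TPM, change in mutants and level had a Spearman correlation of -0.309, change and exon length 0.306, and change and GC content -0.137, as descriptions of genes that share the same libraries. Members with under 25% of their windows shared with other genes gave 16 called of 33 and a median of -0.41, and those with more gave 25 called of 48 and a median of -0.43. Members that carry snoRNA genes gave 13 of 29, and the others 28 of 52.

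In wild-type mice, injury was compared between 4 injured and 3 intact animals. The changes pointed the same way but passed the test for none of the 81 genes in limma, in a contrast that called 0.116% of all genes tested. The median change was -0.29 on the log2 scale (a level 18% lower) against 0.01 over all genes, and 73 of 81 were negative against 48.8% of all genes. Before adjustment 17 genes (21%) had a p under 0.05, against 17.2% of all genes. These p-values came from the fit of all groups, so the spread behind them included the mutants. With only the groups compared, 30 members had an unadjusted p under 0.05, and none was called. In the fit of all groups without intact wild-type mouse 2, the number was 2. The count thus depended on the setting, and the share of all genes was not counted in either alternative. Injured and intact mice did not overlap, as lower, for 18 genes (22.2%), against 6.34% of all genes, and as higher for 1, Rps27l, against 9.22%. The mitochondrial share of TPM also differed without overlap here, 6.89% to 7.70% in injured against 4.53% to 6.35% in intact wild-type mice, while it overlapped in mutants, 5.07% to 7.43% against 4.97% to 5.45%. Its part in the result was not tested. No second tool was run on these values.

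The gene with the smallest p in wild-type discs was Rpl22, a 60S protein that binds RNA. It had 106, 118 and 112 TPM in intact and 82.5, 76.8, 58.2 and 68.0 TPM in injured wild-type mice, with a change of -0.66 ± 0.202 (SE; adjusted p = 0.150). In mutants it had 105, 109, 71.2 and 84.1 TPM in intact and 43.9, 60.4, 40.5, 71.6 and 56.4 TPM in injured discs, and its change of -0.76 passed (adjusted p = 0.00469). The wild-type groups did not overlap, while in mutants intact mouse 3 lay just below injured mouse 4.

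**Figure D4:**
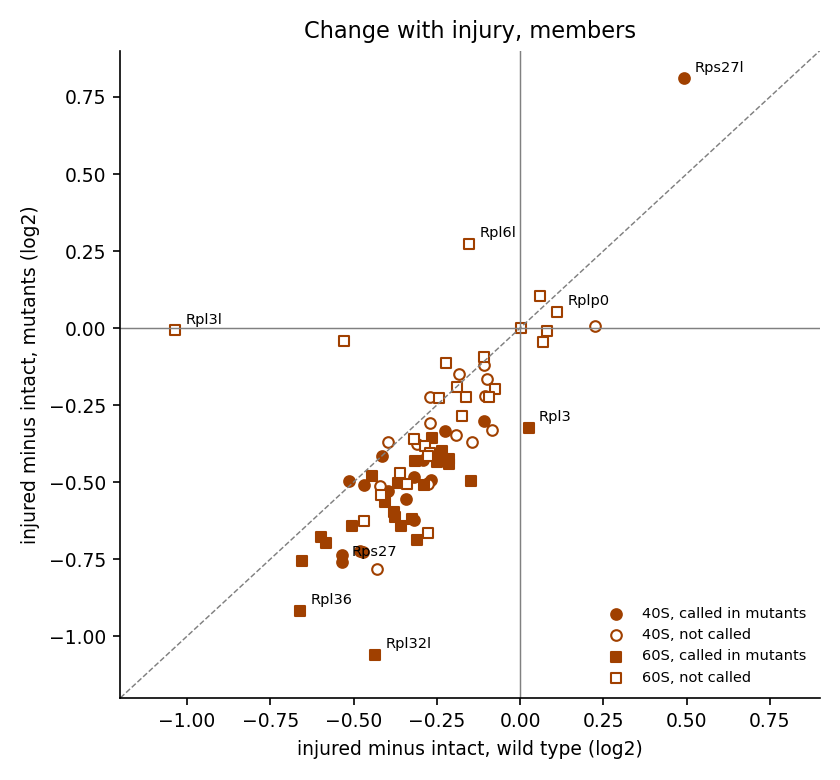
Change in log2(TPM + 1) with injury in wild-type mice (horizontal) and in mutants (vertical) for the 81 genes except 1 that is not reported; circles are 40S and squares 60S genes, filled where the mutant change has an adjusted p under 0.05, and the dashed line marks equal change. Most genes lie in the lower left field and below the line, with medians over all 81 of -0.29 and -0.43.

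Whether the injury effect differed between genotypes was tested by the interaction. Limma called 0 of 81 genes there and 0% of all genes tested, with 1 member at an unadjusted p under 0.05. The median interaction was -0.13 against -0.08 over all genes, and 67 of 81 were negative against 58.2% of all genes. The place of the members below all genes rested on single mice: the median was -0.04 against -0.08 over all genes without injured mutant 1, and -0.04 against -0.07 without intact wild-type mouse 3. It was also -0.09 without injured mutant 3 or injured wild-type mouse 1, -0.22 without intact wild-type mouse 2 and -0.25 without injured mutant 4. The 4 smallest adjusted p-values were those of Rpl3 (-0.35, adjusted p = 0.610), Rpl3l (1.03, adjusted p = 0.647), Rpl14 (-0.38, adjusted p = 0.705) and Rpl29 (0.49, adjusted p = 0.724). The passing of 41 genes in mutants and of none in wild-type mice is thus not a shown difference between genotypes, and the wild-type contrast had fewer mice.

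Rpl3 showed the pattern behind its place. It had 229, 208 and 190.1 TPM in intact and 236, 201, 199 and 215 TPM in injured wild-type mice, and the groups overlapped. In mutants it had 183, 211, 222 and 228 TPM in intact and 152, 159.6, 152, 211 and 172 TPM in injured discs.

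Between genotypes, intact discs gave 0 called members in limma, where 0.0165% of all genes were called. Before adjustment 2 members, Rps4l and Rpl3l, had a p under 0.05, a share of 2.47% against 3.78% of all genes. The median difference, mutant minus wild type, was -0.11 against -0.01, and 69 of 81 were negative against 52.0% of all genes. Without intact wild-type mouse 2 it was -0.03, the same as over all genes (-0.03). It was -0.20 without intact wild-type mouse 3 and -0.07 without intact mutant 1. For 9 members (11.1%) all intact mutants lay below all intact wild-type mice, against 3.41% of all genes.

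In injured discs the median difference between mutants and wild type was -0.26 against -0.09 over all genes. Of the 81 differences 74 were negative, against 60.8% of all genes. Limma called 0 members, where 0.918% of all genes were called, and 21 (25.9%) had an unadjusted p under 0.05, against 20.3% of all genes. The smallest p-values were those of Rpl7 (-0.39, adjusted p = 0.0954), Rpl5 (-0.34, adjusted p = 0.10) and Rpl3 (-0.34, adjusted p = 0.113). Without injured mutant 4, 5 members (6.17%) were called, all lower in mutants, in a fit that called 2.5% of all genes, and the median was -0.36. Without injured mutant 1 it was -0.16, against -0.10 over all genes. Rps6 was the 1 member (1.23%, against 3.86% of all genes) with all injured mutants below all injured wild-type mice, 303 to 420.03 TPM against 426 to 484 TPM. The contrasts of genotype share their mice with those of injury.

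Other genes of the pathway were counted by list for injury in mutants, where 13.1% of all genes were called higher and 17.7% lower. Assembly of ribosomes in the nucleolus needs factors that modify, fold and cut ribosomal RNA. Of 54 such biogenesis genes in mutants, 27 rose (50%), 1 fell (1.85%) and 26 did not pass, with a median of 0.44. Rrp12, which takes part in export of pre-ribosomal subunits, rose the most (1.16 ± 0.238, SE; adjusted p = 0.00230), from 14.2 to 32.5 TPM on average, and Sbds, which helps to free the 60S subunit of Eif6, was the 1 that fell (-0.47, adjusted p = 0.0301). In wild-type mice 0 of the 54 passed in limma, with a median of 0.27 and 4 negative changes.

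Of 39 translation factors, 16 rose (41%), 5 fell (12.8%) and 18 did not pass in mutants, with a median of 0.27. Eif6, which keeps the subunits apart, rose by 1.10 (adjusted p = 0.00129) and Eif4b, a helicase cofactor of initiation, fell by 0.86 (adjusted p = 0.00166). Of 78 mitochondrial ribosomal proteins, 11 rose (14.1%, near the 13.1% of all genes) and 1 fell (1.28%), with a median of 0.16. Mrpl20 rose the most (0.74) and Mrpl48 was the 1 that fell (-0.39).

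RNA polymerase I, which makes the large ribosomal RNAs, had 4 of 15 tested genes rise (26.7%), Polr1d the most (0.72), and 1 fall (6.67%), Taf1b (-0.36), with a median of 0.13. Of 14 snoRNA host genes, whose introns hold small nucleolar RNAs and several of which begin with pyrimidine tracts like ribosomal protein genes, 5 rose (35.7%) and 1 fell (7.14%), with a median of 0.31. Snhg6 rose the most (0.78), and Snhg20 fell (-0.75). Of 32 tested regulators, 5 rose (15.6%) and 8 fell (25%), shares not far from the 13.1% and 17.7% of all genes, with a median of 0.01. Atf4, a transcription factor of the integrated stress response, rose by 1.62 (adjusted p = 0.000476), from 183 to 592 TPM on average, and Mxi1, an antagonist of Myc, fell by 0.79 (adjusted p = 0.00403). Mtor (0.48) and Mlst8 (0.46) were among the 5 that rose, while of the 8 that fell only Mxi1 is given here.

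Ribosomal proteins that the name rule missed gave 1 rise (12.5%) and 2 falls (25%) of 8 tested. Fau, which encodes a 40S protein fused to a ubiquitin-like one, fell by 0.78 (adjusted p = 0.0477), and Rpl7l1, a biogenesis paralog of Rpl7, rose by 0.46 (adjusted p = 0.00907). Their median was -0.31.

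**Figure D5:**
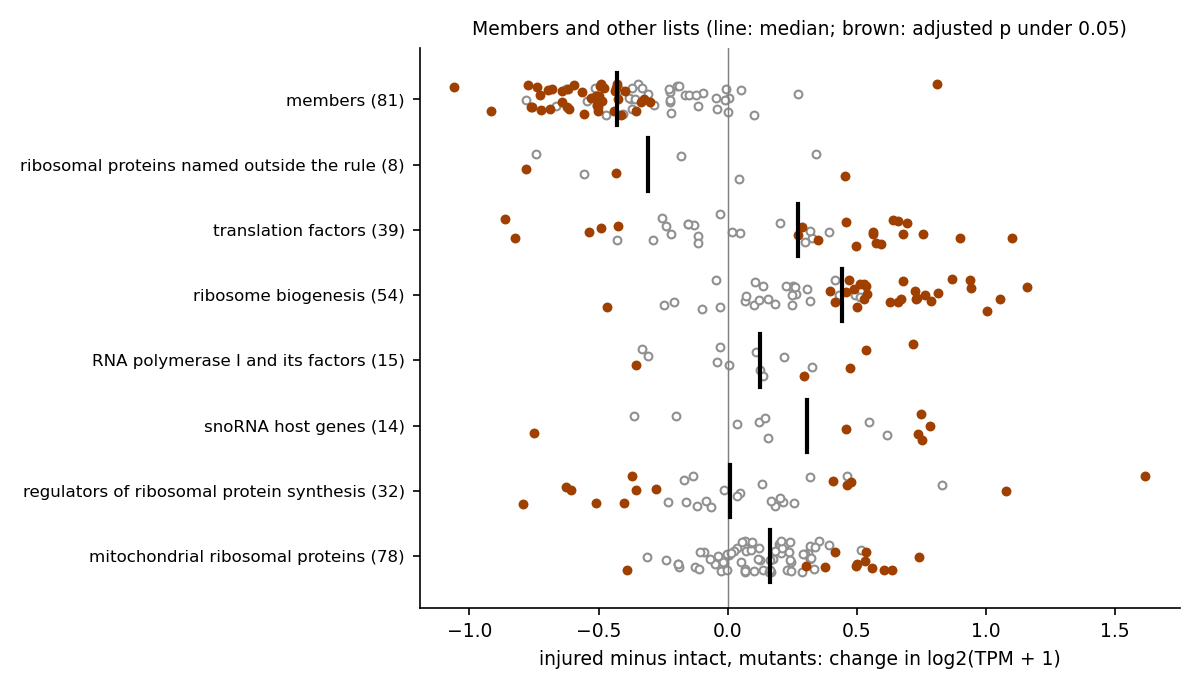
Change in log2(TPM + 1) from intact to injured mutants for the 81 genes (top) and for 7 other lists, with the number of tested genes in brackets; each point is a gene, brown where the adjusted p is under 0.05, and black lines are medians. The median is -0.43 for the 81 genes and 0.44 for ribosome biogenesis.

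Markers of other cells moved with injury beside these genes. In injured mutants 1 to 5 the 7 notochordal markers (T, Krt8 and others) summed to 556, 1416, 722, 3349.6 and 1882 TPM, against 3331 to 5507 TPM in intact mutants. Their order over the 5 mice was the order of the mean log2 level of the 81 genes, 6.81, 7.22, 6.99, 7.60 and 7.27. In injured wild-type mice the orders differed: the markers summed to 5269, 4255, 1457 and 2296 TPM and the mean log2 levels were 7.54, 7.27, 7.40 and 7.41. They also differed in both intact groups. Intact mutant 3 had the lowest marker sum of its group, 3331 TPM, and the highest mean log2 level, 7.677. Intact wild-type mice 1 to 3 had marker sums of 6434, 6067 and 5869 TPM and mean log2 levels of 7.75, 7.845 and 7.468. The 8 macrophage and monocyte markers summed to 807 to 7853 TPM in injured and 157 to 234 TPM in intact mutants, and the 6 fibroblast markers to 6779 to 10938 TPM against 3018 to 4659 TPM. The 7 proliferation markers summed to 86.2 to 157 TPM in injured and 37.1 to 51.2 TPM in intact mutants. No marker on these lists was at 0 in every library. The part of these cells in the changes of the ribosomal protein genes was not tested.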

How the data were processed

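Bulk RNA sequencing was done on tail discs of 16 mice, with ribosomal RNA depletion per the labels' protocols, although the molecule field reads polyA RNA. The authors deposited 1 table of TPM values, each column summing to 1000000. The submitters' processing notes name bcl2fastq 2.20 and GRCm38 without a role. Aligner, counting, use of strand and annotation are not given in the sources used here. Genes were joined to GENCODE M21 (GRCm38) by identifier (99.5% found).

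Groups came from the titles, because the genotype field of the wild-type mice is cut short. Whole reads could be approximated for 94.1% to 95.0% of low values (under 20 reads, within 0.05), which gave the depths. Genes with 1 TPM in 3 libraries were tested with limma 3.58.1 in R 4.3.3 (lmFit with a mean per group, eBayes with trend) on log2(TPM + 1), a scale that understates changes of low genes. Benjamini-Hochberg adjustment covered all 24188 genes, with a threshold of 0.05. P-values measure the spread between these mice. The main fit held all groups, so each contrast used a spread taken over all the mice. Each SE uses the spread of its gene alone, while the p-values use the spread as adjusted by eBayes. A change divided by its SE therefore does not give the printed p-value. On simulated data with 200 genes changed by 2 (log2) for injury in mutants, 87% were recovered, with 13 false calls. The genes were simulated independently, and their changes were larger than the median member changes (-0.43 in mutants, -0.29 in wild-type mice). The 87% therefore does not tell how often changes of that size would be called.

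The members and lists were chosen with earlier results of these data known, and no test was made over a list. Named were the 4 largest called rises and falls per contrast, the 4 smallest adjusted p-values of the interaction, the 5 highest and lowest levels, genes at the threshold, role groups and the extremes of each list, of which 1 member is not reported here. Rpl22, Rpl3 and the genes with the smallest p in contrasts without calls were chosen after their values were seen. Mdm2, Mtor and Mlst8 were also named outside the rule above. Windows of 75 bases were compared between transcripts with Python 3.11.15. Alternatives were another pseudocount (0.1), 2 other filters, 3 scalings, centring in length and GC bins, eBayes without trend, sample weights, only the groups compared, a replicate block, name prefixes and leaving out each mouse. Splits by shared windows and by biotype were added after the data were seen.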

Additional observations from a re-analysis of the deposited data

Results flagged for a closer look

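In 75 sets of 4 or 5 mice (levels of named genes and of the whole set), 3 values stood farther from the rest of their group than Dixon's 95% limit for a single outlier allows. Chance alone flags about 1 in 20 such sets. Rpl36 in intact mutant 1 was 9.87 on the log2(TPM + 1) scale, below the 10.26 to 10.27 of the other 3 intact mutants. Rpl32l in injured mutant 4 was 1.32, above 0.80 to 0.90 in the other injured mutants. Rpl3l in the same mouse was 2.56, above 0.61 to 1.08.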

How the results depend on the processing

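For injury in mutants, 41 members were called. The count was 27 under median-of-ratios scaling (33.3% against 31.1% of all genes) and 26 with only the groups compared (32.1% against 29.4%). It was 19 with mutants named A8 only (23.5% against 14.8%) and 0 with mutants named M only (against 3.0%). Leaving out each mouse gave 23 to 58 (28.4% to 71.6%), in fits that called 22% to 33% of all genes. The count was 16 of 33 members with under 25% of windows shared and 25 of 48 with more, smaller counts because fewer members were counted. Under median-of-ratios scaling and with only the groups compared, the share called was thus near that of all genes, while 32.1% and 30.9% were called lower against 14.9% and 16.8%. The cause of the other shifts was not tested. The rest of the settings gave 31 to 51 called members. The 31 came without a filter (38.3% against 19.1% of all genes) and the 51 with the mutant name prefix as a covariate (63% against 32.5%). For genotype in injured discs, leaving out each mouse gave 0 to 5 called (at most 6.17%, against 2.5% of all genes), and every other setting 0. Injury in wild type, genotype in intact discs and the interaction stayed at 0 called members throughout. Median changes ran from -0.52 to -0.34 for injury in mutants, -0.40 to -0.21 in wild type, -0.40 to -0.12 for genotype in injured and -0.21 to -0.03 in intact discs, and -0.25 to -0.03 for the interaction. The fit of only the groups compared gives no interaction.

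Same-numbered mice are different animals, and their deviations from the group means correlated by -0.22 to 0.15 over 21 pairs, so the numbers do not pair them. A fit with the replicate block called 33 members for injury in mutants (40.7% against 25.6% of all genes, median -0.45) and 0 in each other contrast. Genes near 1 TPM, such as Rpl32l, Rpl6l and Rpl3l, rest on few reads, so depth limits what they can show.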
